A study of Canis lupus familiaris with 34 samples.

Results

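The cytotoxic effector genes examined were GZMA, GZMB, GZMK, PRF1, NKG7, CTSW, FASLG, CCL5, KLRD1 and KLRB1, 10 genes chosen by name. A gene was read from the probe sets whose annotation gives its symbol and no other, on an Affymetrix Canine_2 array with 43035 probe sets. Of the 10 genes, 9 had such a probe set, with 14 probe sets in all, while KLRB1, a lectin-like receptor, had none and was not analysed here. A gene with more than 1 probe set was represented by that with the greatest average level on the arrays compared. The whole table gave 15115 genes read in this way. For each of the 9 genes it was the same probe set in every comparison. For some other genes, such as IL2RB and CD3E, the probe set changed between comparisons.

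Cytotoxic T cells and natural killer (NK) cells kill other cells by releasing granules. Perforin, the product of PRF1, opens pores in the membrane of the target cell, and granzymes, the serine proteases of the GZM genes, pass into the target and start cell death. The same cells can kill through Fas ligand, and they carry inhibitory and activating receptors of the lectin-like family, which include KLRD1 (CD94).

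Expression was measured on 34 arrays, 1 for each dog or line, and 16 of them held primary cells of lymphoid tumors. These were 2 chronic lymphocytic leukemias (CLL, Maddle and Forrest), 6 T-zone lymphomas (TZL, a lymphoma of T cell origin in the labels), 6 diffuse large B cell lymphomas (DLBCL), 1 marginal zone B cell lymphoma (MZL, Bitsy) and 1 acute lymphoblastic leukemia (ALL, Rascal). All of these dogs were golden retrievers except Rascal, a Golden Retriever mix. The other 18 arrays held cultured cells. Of these, 10 were hemangiosarcoma lines (HSA) of the earliest available passages, from golden retrievers and 4 other breeds or crosses. Another 3 were low passage cultures of non-malignant splenic hematomas from 3 breeds. The last 5 were osteosarcoma lines (OSA) from golden retrievers, with no passage stated. The cultured arrays served as a background taken to hold no lymphocytes, with the limit that tissue of origin and culture differed together from the primary cells. No treatment or genotype was given for any group, and the share of tumor cells in the primary samples was not given. Because the samples are bulk RNA, fewer cells of a type and less RNA per cell cannot be told apart.

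Levels are on the log2 scale of RMA, which removes background, brings the arrays to the same distribution and combines the probes of a set, so each difference is a log2 fold of signal. The medians of the arrays lay between 5.57 and 5.77. Levels of different genes cannot be compared with one another, because each probe set has its own response. The labelled lineages were checked against marker genes. CD3E, a chain of the T cell receptor complex, was at 10.63 and 11.12 in CLL, 10.70 to 11.27 in TZL and 7.19 to 9.94 in DLBCL, against 5.41 to 6.52 in cultured cells. MS4A1, which encodes the B cell antigen CD20, was at 5.60 and 5.96 in CLL, 7.67 to 11.00 in TZL and 10.70 to 12.40 in DLBCL, against 3.72 to 4.87 in cultured cells. CD79A, another B cell marker, separated these groups less. It was at 8.28 (Maddle) and 7.88 (Forrest) in CLL, 7.60 to 9.43 in TZL and 8.19 to 10.05 in DLBCL, against 3.89 to 4.76 in cultured cells. The CLL arrays therefore carried a T cell marker at TZL levels and little MS4A1, but CD79A well above culture. The labels give only a lymphocyte as their origin. The DLBCL and TZL arrays each carried markers of the other lineage above the cultured background. RNA quality differed too. The 3′ minus 5′ difference of the actin control was 3.44 and 3.92 in CLL, -0.30 to 4.03 in TZL (median -0.09) and 0.67 to 3.46 in DLBCL (median 1.63), with 3.59 in ALL. Its highest values in TZL were those of Thunder (4.03) and Fire (3.30).

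The background level of each gene was set by the cultured cells, and the primary arrays stood above it for most genes. CTSW, FASLG, KLRD1 and NKG7 were above the highest cultured array on all 16 primary arrays, FASLG in ALL by less than the decimals printed, a pattern found in 2.38% of all genes. GZMA, GZMB and GZMK were above it on 15 of 16 arrays, CCL5 on 12 and PRF1 on 9. CCL5, which ranged from 4.29 to 7.24 among cultures, had the widest background of the 9 genes.

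**Figure D1:**
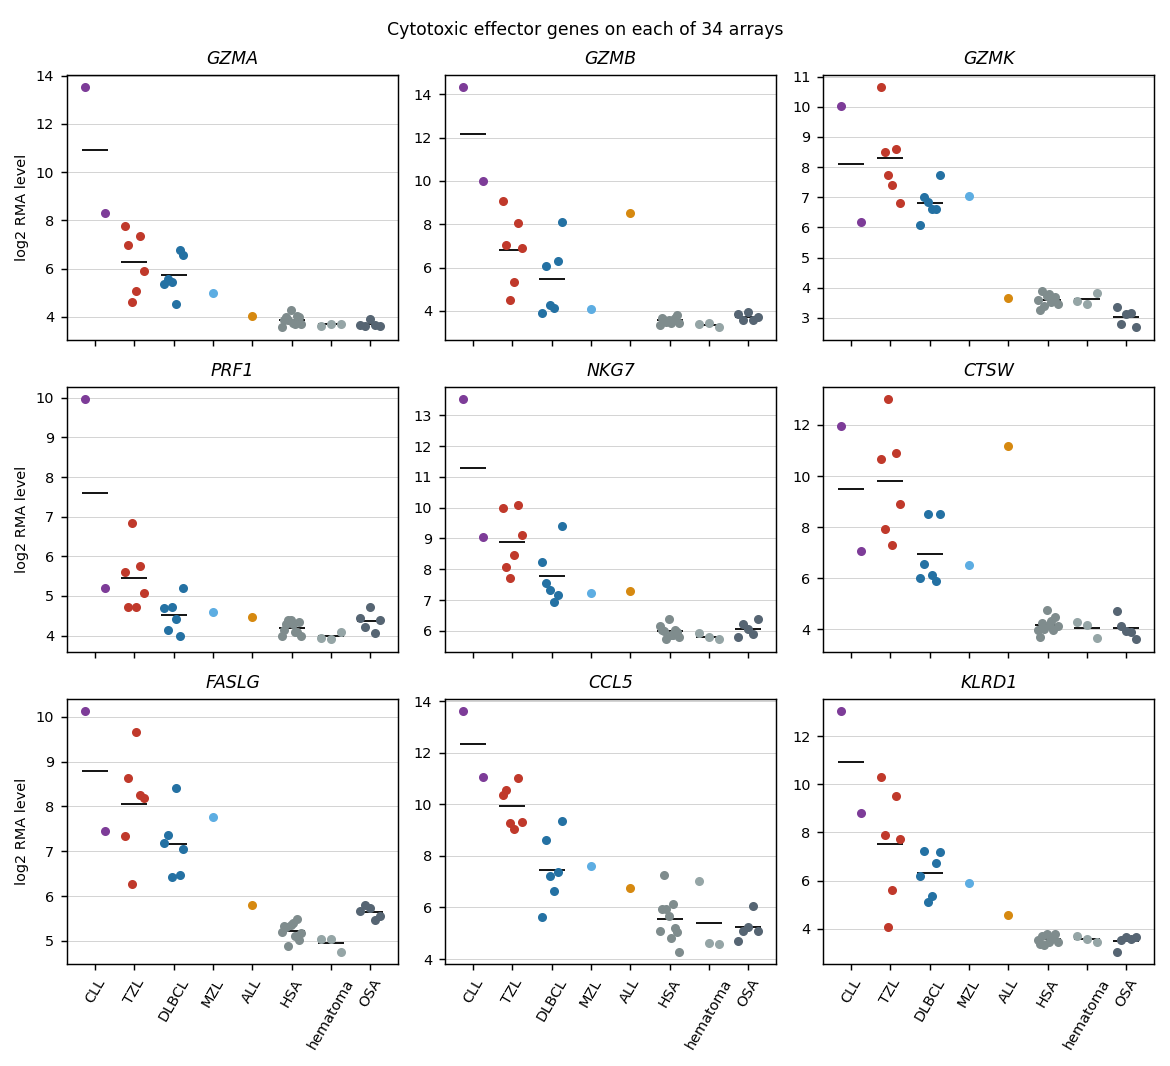
Log2 RMA level (vertical axes, a separate scale for each gene) of 9 cytotoxic effector genes on each of 34 arrays, by group; each point is 1 array and each bar is the mean of a group of 2 or more arrays. The gray cultured groups (HSA, hematoma, OSA) lie low and close together, whereas the 2 CLL points lie far apart, with Maddle at 13.55 and Forrest at 8.32 for GZMA.

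Among the granule proteases, GZMA encodes granzyme A, a tryptase. It was at 13.55 (Maddle) and 8.32 (Forrest) in CLL, both above every lymphoma array. Its lowest, median and highest levels were 4.61, 6.43 and 7.78 in TZL and 4.55, 5.51 and 6.78 in DLBCL, against a range of 3.56 to 4.27 in cultured cells. The lymphoma groups overlapped, though 3 of 6 TZL arrays were above the highest DLBCL array. The MZL array (5.0) lay within both groups, while the ALL array (4.03) lay within the cultured range.

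GZMB encodes granzyme B, which cleaves caspases and other substrates after aspartate. It was at 14.36 in Maddle and 10.01 in Forrest. It ran from 4.49 (Rose) over a median of 6.95 to 9.08 (Newman) in TZL and from 3.90 (Benson) over a median of 5.18 to 8.10 (Chieftain) in DLBCL, with cultured cells between 3.23 and 3.94. Both lymphoma groups thus spanned more than 4 log2 units, and Benson lay within the cultured range. The ALL array, at 8.52, was higher than 5 of 6 TZL arrays and all 6 DLBCL arrays, and the MZL array was at 4.09. The other GZMB probe set gave means of 11.83 in CLL, 6.68 in TZL and 5.24 in DLBCL.

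GZMK encodes granzyme K, another tryptase. DLBCL arrays were at 6.07, 6.72 and 7.75 (lowest, median, highest), against 2.68 to 3.90 in cultured cells, with a wide gap between them. TZL arrays reached 6.82, 8.11 and 10.67, and Newman was the highest of the 16 primary arrays. The CLL arrays were at 10.01 (Maddle) and 6.17 (Forrest), so that Forrest was below every TZL array and 5 of 6 DLBCL arrays for this gene. The MZL array was at 7.05 and the ALL array at 3.66, within the cultured range. These levels come from 1 of 2 probe sets, and the other stayed between 2.76 and 3.50 in TZL and DLBCL, close to its cultured range of 2.72 to 3.10.

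CTSW encodes cathepsin W, a papain-like cysteine protease of T and NK cells. TZL arrays were at 7.31, 9.77 and 13.03 (lowest, median, highest) and DLBCL arrays at 5.88, 6.34 and 8.53. The highest of all primary arrays was Rose, a TZL, followed by Maddle at 11.94 and the ALL array at 11.19. Forrest, the other CLL, was at 7.07 and the MZL array at 6.50, both well above the cultured range of 3.60 to 4.74.

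PRF1 gave the weakest contrast to culture. Maddle was at 9.98, and the next arrays were Rose at 6.83, Thunder at 5.76 and Newman at 5.60. TZL arrays had a lowest level of 4.71 and a median of 5.34, and DLBCL arrays ran from 4.0 over 4.56 to 5.20. With cultured cells between 3.90 and 4.72, 4 of 6 DLBCL arrays, 1 TZL array (Niki), the MZL array (4.59) and the ALL array (4.46) did not exceed the highest culture.

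NKG7 encodes a membrane protein of cytotoxic granules. It was at 13.54 in Maddle and 9.05 in Forrest. TZL arrays were at 7.71, 8.78 and 10.08 and DLBCL arrays at 6.93, 7.45 and 9.42 (lowest, median, highest), above the cultured range of 5.72 to 6.39. The MZL (7.22) and ALL (7.30) arrays fell among the DLBCL arrays. The gene had 3 probe sets, and the other 2 had means of 7.15 and 8.54 in TZL and 5.31 and 7.38 in DLBCL.

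FASLG encodes Fas ligand, which kills cells that bear the receptor FAS. Maddle was at 10.14 and Forrest at 7.46. TZL arrays were at 6.27, 8.23 and 9.67 and DLBCL arrays at 6.43, 7.12 and 8.42 (lowest, median, highest), so the lowest array of the lymphomas was a TZL (Rose) and the highest DLBCL was Kaycee. The MZL array was at 7.77, and the ALL array, at 5.81, was above the highest culture, 5.81, by less than these decimals show. The other FASLG probe set lay between 3.52 and 4.62 in TZL, with cultured cells at 3.32 to 4.13. It read lower in CLL (3.73 and 3.90) than in DLBCL (3.90 to 4.12), opposite to the probe set used, with a difference of -0.20 that was not called.

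CCL5 encodes a chemokine that draws T cells and monocytes. It was at 13.63 in Maddle and 11.05 in Forrest. All 6 TZL arrays lay between 9.03 and 11.00 with a median of 9.84, and DLBCL arrays between 5.63 (Benson) and 9.35 (Chieftain) with a median of 7.29. The groups overlapped through Chieftain, which was above 3 of the TZL arrays. The MZL array was at 7.62 and the ALL array at 6.74.

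KLRD1, which pairs with NKG2 proteins on NK cells and part of the CD8 T cells, spread the most among TZL. TZL arrays ran from 4.05 (Rose) over a median of 7.80 to 10.31 (Newman), a 76.5-fold range, and DLBCL arrays from 5.10 over 6.46 to 7.21. CLL arrays were at 13.06 (Maddle) and 8.81 (Forrest), the MZL array at 5.90 and the ALL array at 4.58, against 3.05 to 3.78 in cultured cells. Rose thus lay closer to the cultures than any DLBCL array did. Cooper, the DLBCL array with the highest KLRD1, had KLRF1, another receptor of NK cells, at 7.68, while the other DLBCL arrays had it at 3.64 to 4.65. The NK cell marker NCR3 did not stand out in Cooper, at 5.96 in a DLBCL range of 5.50 to 6.85. The marker NCR1 was at 4.41, the highest of DLBCL but within the cultured range of 4.14 to 4.89. The part of these markers was not tested.

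TZL was compared with DLBCL to see how far the effector genes separated lymphomas of T cell and B cell origin. CCL5 was the gene that passed, with 9.93 ± 0.82 in TZL and 7.47 ± 1.34 in DLBCL (SD, n = 6 each), a difference of 2.46 (SE 0.57, 5.52-fold, limma adjusted p = 0.0155). It was called under all 20 alternatives as well, with adjusted p values of 0.00265 to 0.0401. Thus 1 of 9 genes was called, whereas 11.7% of all genes were called and 5.70% were higher in TZL. The 9 differences were all positive, with a median of 1.21 beside -0.03 for all genes, and the groups overlapped for every one of the 9, while 3.06% of all genes were higher on each TZL array than on any DLBCL array. CTSW had the largest difference, 2.86 (SE 0.89, adjusted p = 0.064), with means of 9.79 ± 2.14 in TZL and 6.93 ± 1.25 in DLBCL and a 95% interval of 0.94 to 4.78. Without the TZL array Shilo its adjusted p was 0.0361, and without the DLBCL array Chieftain 0.047, in a range of 0.0064 to 0.131 over 20 alternatives.

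The remaining 7 genes did not pass. GZMK differed by 1.47 (SE 0.53, adjusted p = 0.11), PRF1 by 0.92 (SE 0.34, adjusted p = 0.122) and NKG7 by 1.13 (SE 0.49, adjusted p = 0.202), and the unadjusted 95% intervals of these 3 differences lay above 0. The intervals of the others held 0, with GZMB at -0.47 to 3.17, KLRD1 at -0.73 to 3.16, FASLG at -0.16 to 1.98 and GZMA at -0.63 to 1.76. At an unadjusted p under 0.05, 5 of 9 genes would have been counted, beside 24.7% of all genes. T cell markers moved with this comparison, as 8 of 11 were higher in TZL, and B cell markers the other way, as 5 of 8 were lower. The summed level of the T cell markers was 14.31 to 15.26 in TZL and 12.52 to 13.48 in DLBCL. Of 7 NK cell markers, 0 were called, with summed levels of 9.06 to 11.92 in TZL and 8.62 to 9.43 in DLBCL. Of 12 macrophage and monocyte and 5 granulocyte markers, 0 were called. The part of these markers in the differences was not tested.

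**Figure D2:**
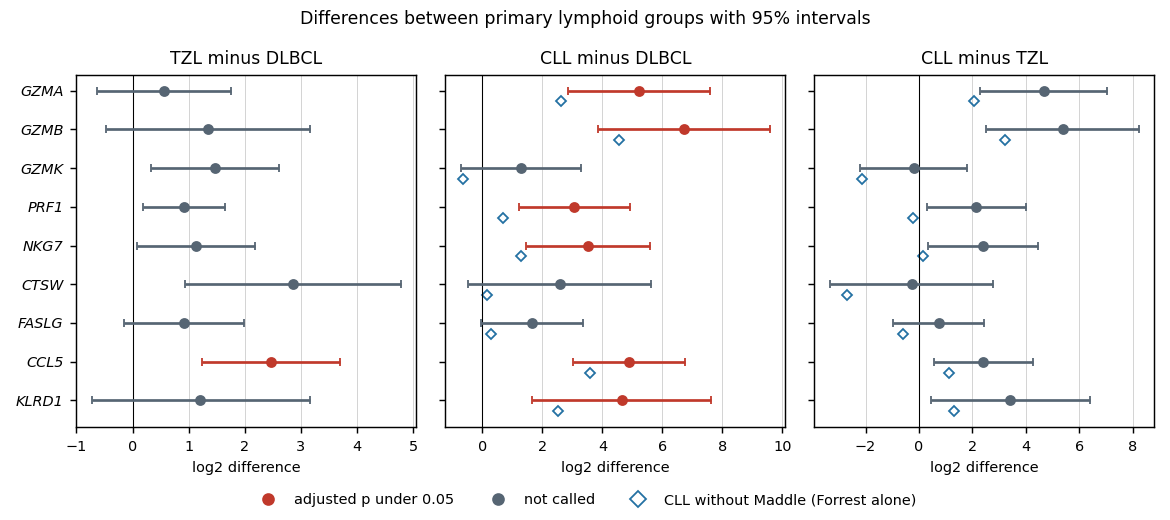
Log2 difference (horizontal axes) of each gene between primary lymphoid groups, with 95% intervals from limma; red points passed at an adjusted p of 0.05, gray points did not, and open diamonds give the difference with Forrest as the lone CLL array. CCL5 is the red point in TZL minus DLBCL, 6 genes are red in CLL minus DLBCL, and without Maddle the GZMB difference is 4.55 in place of 6.72.

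Against cultured cells all 9 genes were higher in TZL, where 49.7% of all genes were called and 29.1% were higher. All 9 were also higher in DLBCL, where 51.9% of all genes were called and 32.0% were higher. The differences in TZL ran from 1.24 for PRF1 (SE 0.20, limma adjusted p = 1.25e-05) to 5.67 for CTSW (SE 0.48, adjusted p = 4.15e-10), and 8 of 9 genes, all but PRF1, did not overlap with culture, as was the case for 6.37% of all genes. In DLBCL the largest difference was that of GZMK, 3.37 (SE 0.18, adjusted p = 7.1e-14), and the same gene differed by 4.84 in TZL. CTSW followed with 2.81 and KLRD1 with 2.76, and 6 of 9 genes did not overlap with culture, beside 5.82% of all genes. The smallest was PRF1, with 4.53 ± 0.44 (SD, n = 6) in DLBCL and 4.21 ± 0.21 (SD, n = 18) in cultured cells, a difference of 0.32 (adjusted p = 0.0489) that was called under 6 of 15 alternatives. The call, though not the difference, was lost without the DLBCL array Benson (0.28), Sally (0.28) or Kaycee (0.34), and without Chieftain the difference was 0.19 and not called. T cell markers were also above culture in DLBCL, 10 of 11, with summed levels from 12.52 (Benson) to 13.48 (Cooper), against 8.73 to 10.42 in cultured cells, and 5 of 7 NK cell markers were too. Their part was not tested. These comparisons share their cultured arrays.

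CLL was compared with both lymphomas, with the limit that 2 arrays stand for CLL. Against DLBCL, 6 of 9 genes were higher in CLL, beside 6.03% of all genes called higher and 12.6% called either way. GZMB had the largest difference, 6.72 (SE 1.33, limma adjusted p = 0.00579), with 12.18 ± 3.07 in CLL (SD, n = 2) and 5.46 ± 1.65 in DLBCL (SD, n = 6). GZMA followed with 5.22 (SE 1.10, adjusted p = 0.00836) and CCL5 with 4.88 (SE 0.87, adjusted p = 0.0031). KLRD1 (4.64, adjusted p = 0.0477), NKG7 (3.53, adjusted p = 0.0309) and PRF1 (3.06, adjusted p = 0.0362) were called as well. CTSW (2.58), FASLG (1.64) and GZMK (1.28) were not. For 5 of 9 genes both CLL arrays were above every DLBCL array, as they were for 12.5% of all genes. For PRF1, 1 of the 5, the gap was narrow, with Forrest at 5.21 and the DLBCL array Chieftain at 5.20.

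The calls rested on Maddle. With Forrest as the lone CLL array, assumed to vary like the lymphoma arrays, 0 of 9 genes were called, and the adjusted p was 0.0829 for CCL5 (3.59), 0.144 for GZMB (4.55) and 0.212 for GZMA (2.61). KLRD1, NKG7 and PRF1 were no longer called either with the actin difference as a covariate or without the DLBCL array Cooper, Sally, Kaycee or Snuggles, which left 3 of 9 genes. Without Benson, KLRD1 and PRF1 were lost, and KLRD1 was also lost without the TZL array Niki or Fire. The share of all genes called in these fits is not given here, so their counts have no background. The CLL arrays had nearly the same summed level of T cell markers, 14.58 in Maddle and 14.43 in Forrest, but differed in the NK cell markers, 13.95 in Maddle and 10.66 in Forrest. Among these NK cell markers, NCR3, an activating receptor, was at 13.23 in Maddle and 8.21 in Forrest. CD8A, a chain of the CD8 coreceptor of T cells, was at 11.67 in Maddle and 5.72 in Forrest. NCR1, which marks NK cells, was at 6.31 in Maddle and 4.52 in Forrest, against 4.16 to 4.50 in TZL and 4.14 to 4.41 in DLBCL. Against DLBCL, 5 of 11 T cell markers and 4 of 7 NK cell markers were higher in CLL. B cell markers were lower in CLL than in DLBCL for 6 of 8, with summed levels of 9.23 (Maddle) and 9.09 (Forrest) in CLL and 12.92 to 13.68 in DLBCL. Granulocyte markers were higher for 3 of 5 (S100A8, S100A9 and CSF3R), with summed levels of 13.43 (Maddle) and 11.93 (Forrest) in CLL and 7.96 to 11.94 in DLBCL. Of 12 macrophage and monocyte markers, LYZ and FCGR1A were higher and C1QA and C1QC lower. The part of these markers was not tested.

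Against TZL, 0 of 9 genes were called in limma, where 0.873% of all genes were called and 0.589% were higher. At an unadjusted p under 0.05, 6 of 9 genes would have been counted, namely CCL5, GZMA, GZMB, KLRD1, NKG7 and PRF1, beside 12.3% of all genes. GZMB was 5.37 higher (SE 1.33, adjusted p = 0.0878) and GZMA 4.66 higher (SE 1.10, adjusted p = 0.0722), and neither overlapped with TZL, nor did CCL5, which makes 3 of 9 genes beside 7.40% of all genes. For CCL5 the gap was narrow, with Forrest at 11.05 and the TZL array Thunder at 11.00. With Maddle alone as CLL, the difference was 7.27 for GZMA and 7.55 for GZMB, and with Forrest alone 2.04 and 3.20. GZMK (-0.19, interval -2.19 to 1.80) and CTSW (-0.28, interval -3.34 to 2.77) had differences near 0 with wide intervals.

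Seen by array, Maddle was the highest of the 16 primary arrays for 7 of 9 genes and among the 3 highest for all 9, whereas it was the highest for 7.65% of all genes. The exceptions were GZMK, led by Newman, and CTSW, led by Rose. Newman and Thunder were each among the 3 highest arrays for 5 genes. In DLBCL, Chieftain was the highest for 5 of 9 genes (CCL5, GZMB, GZMK, NKG7 and PRF1), and it was above the cultured range for all 9.

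**Figure D3:**
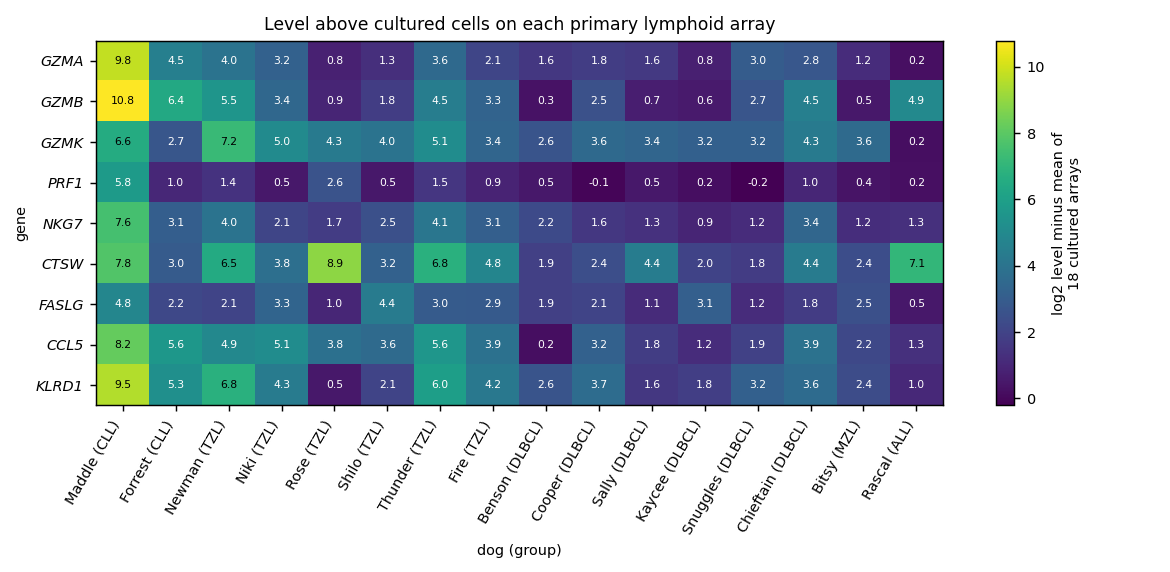
Log2 level minus the mean of the 18 cultured arrays for each gene (rows) on each of 16 primary arrays (columns, dog and group); brighter cells are higher. Maddle holds the highest value in 7 of 9 rows, with 10.8 for GZMB, Rose is bright for CTSW (8.9) and dark for KLRD1 (0.5), and Rascal is bright for GZMB (4.9) and CTSW (7.1).

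The effector genes did not vary as a block. Rose had the highest CTSW and PRF1 of the TZL arrays and the lowest levels of 5 genes, namely GZMA, GZMB, KLRD1, FASLG and NKG7. Rose was also the TZL array with the highest CD4, 10.73, and the lowest CD8A, 5.15. Its summed NK cell markers were the highest of TZL, 11.92, with Newman next at 10.55, and so was KLRF1, at 5.71. Other NK cell markers went the other way, as NCR3 (5.57) and NCR1 (4.16) were lowest of TZL in Rose. The part of these markers was not tested. Shilo had the highest CD8A of TZL, 11.57, and the highest FASLG, 9.67, with GZMA (5.07), GZMB (5.35) and KLRD1 (5.60) in the lower part of the group. Thunder had CD8A at 10.32 and Newman at 8.51, both with high GZMB and KLRD1. High CD8A therefore occurred with both high and low granzyme levels.

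The ALL array differed in another way. Rascal had GZMB at 8.52 and CTSW at 11.19, while CCL5, GZMA, GZMK and PRF1 did not exceed the highest culture. Its CD3E was 9.14 and its CD8A 5.04. No comparison was fitted for this lone array.

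**Figure D4:**
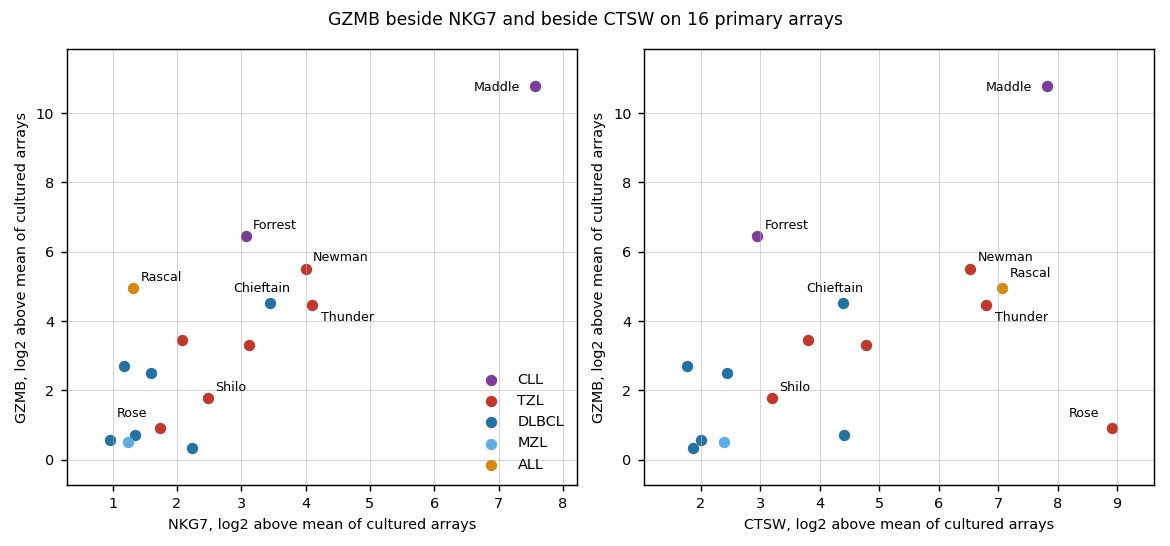
GZMB (vertical axes) beside NKG7 (left) and CTSW (right), each as log2 level above the mean of the cultured arrays; each point is 1 of 16 primary arrays, colored by group. GZMB and NKG7 are both highest in Maddle, whereas Rose has CTSW at 8.9 with GZMB at 0.9.

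The spread within TZL was large for these genes, and within DLBCL it was large for part of them. In TZL the SD was 2.35 for KLRD1, 2.14 for CTSW and 1.68 for GZMB, beside a median SD of 0.34 over all genes, and 0.146%, 0.198% and 0.516% of genes had an SD as large. In DLBCL the SD was 1.65 for GZMB and 1.34 for CCL5, beside a median of 0.37, and lowest for PRF1 at 0.44. There, 36.5% of genes had an SD as large as that of PRF1, and 22.1% as large as that of GZMK (0.55). Over the 16 primary arrays, NKG7 followed the mean of the other 8 genes the closest (Pearson r = 0.95), then CCL5 (0.90) and GZMA (0.89), and FASLG (0.52) and CTSW (0.45) the least. Without Maddle these values were 0.86, 0.89, 0.70, 0.17 and 0.25 over 15 arrays. Whether all arrays were normalized together is not given, and the values are descriptions.

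The genes with the profile most like the mean of the 9 over the 16 arrays were PTGDR (r = 0.95), a receptor of prostaglandin D, IL2RB (0.95), a chain shared by interleukin receptors, EOMES (0.92), a T-box factor of cytotoxic cells, CCL4 (0.92), a chemokine, and NCR3 (0.91). RDX (0.89), GFI1 (0.89), BACE2 (0.88), TRAPPC14 (0.88) and CLNK (0.87) came next. Without Maddle the values were 0.91 for PTGDR, 0.92 for IL2RB and 0.61 for CLNK. IL2RB was read here from a probe set with means of 7.27 in TZL and 4.73 in DLBCL. The probe set used for it in TZL against DLBCL had means of 6.24 and 6.25. PTGDR was at 12.09 in Maddle and 7.52 in Forrest, 7.77 ± 1.15 in TZL and 5.59 ± 0.68 in DLBCL (SD, n = 6 each).

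Other genes of the cytotoxic program were read from 6 lists of 101 genes, of which 81 had a probe set. In TZL against DLBCL, 21 were higher and 0 lower, with a median difference of 0.68, and the 11.7% of all genes called is the background. At the level of the lists, 3 of 9 granule genes rose, SRGN, SERPINB1 and SERPINB6, and SRGN, the proteoglycan that packs granzymes in the granule, was at 12.65 ± 0.28 in TZL and 9.38 ± 0.63 in DLBCL (difference 3.27, limma adjusted p = 1.61e-05). SRGN was at 12.26 to 13.10 in TZL and 8.57 to 10.25 in DLBCL, with no overlap. SERPINB1 and SERPINB6 encode protease inhibitors, and not proteases.

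Of 12 exocytosis genes, SYTL3 (4.29), RAB27A (1.34) and VAMP8 (1.29) were higher in TZL. RAB27A is the GTPase that docks granules at the membrane, SYTL3 is one of its effectors, and VAMP8 is a fusion protein of vesicles. Of 21 receptors and adaptors, CD7 (4.05), CD96 (3.81), SH2D1A (3.75) and CD226 (3.48) were higher. Of 10 genes of death ligands and target cell machinery, TNFSF10, which encodes the death ligand TRAIL, was higher by 1.31 (adjusted p = 0.0317), with levels of 11.53 to 12.72 in TZL and 9.50 to 11.67 in DLBCL.

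Of 17 cytokine and chemokine genes, IL21R (2.04), IL18RAP (1.86), CCL4 (1.81), CCR7 (1.45) and IL15 were higher. CCR7 is a receptor of T cells that home to lymph nodes and is not a cytotoxic effector. Of 12 transcription factors, LEF1 (5.03), TOX (3.00), TCF7 (2.54), NFIL3 (2.21) and PRDM1 were higher. LEF1 and TCF7 are factors of naive and memory T cells. LEF1 was at 9.41 to 10.58 in TZL and 3.81 to 7.36 in DLBCL, where Chieftain was the highest.

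**Figure D5:**
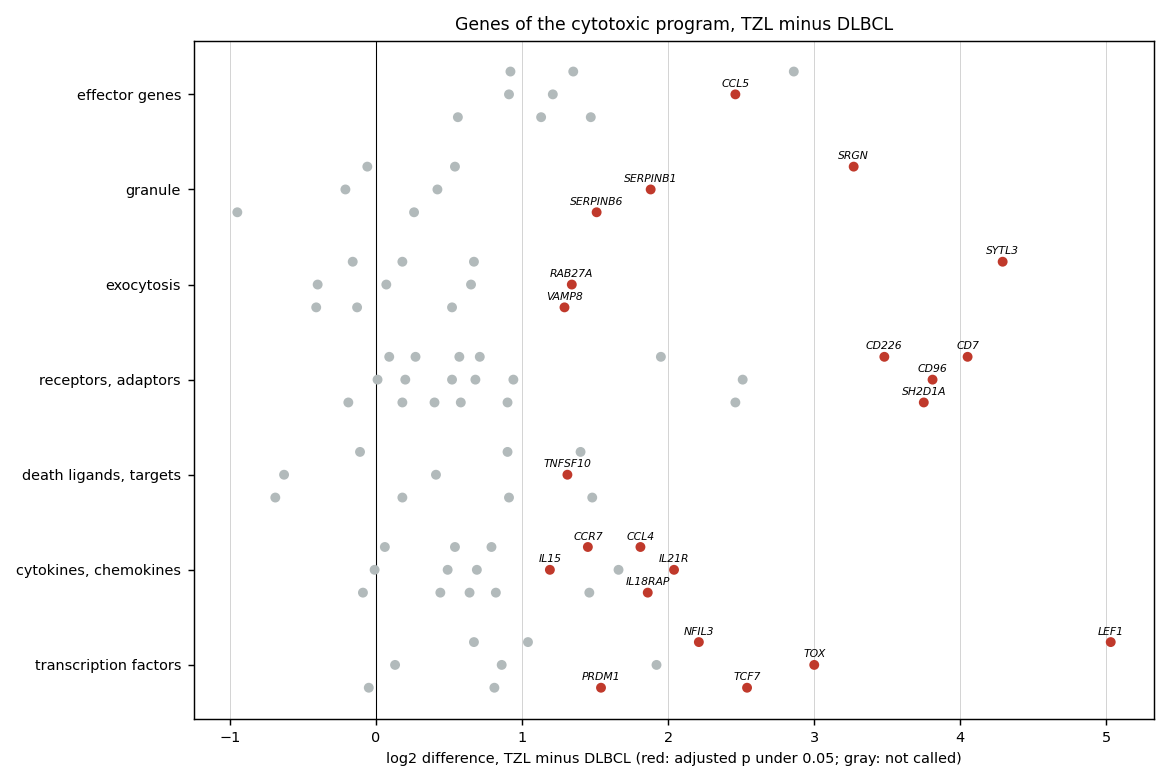
Log2 difference, TZL minus DLBCL (horizontal axis), of the 9 effector genes and 81 other genes of 6 lists (rows); each point is 1 gene, red and named where the adjusted p was under 0.05 and gray where not. The red points, 21 of 81 in the lists, all lie right of 0, with LEF1 at 5.03, SYTL3 at 4.29 and VAMP8 at 1.29.

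In CLL against DLBCL, 24 of the 81 genes were higher and 1 lower, beside 12.6% of all genes called, with 10 of 21 receptors and adaptors and 6 of 12 transcription factors higher. With Forrest alone as CLL, 4 of 21 receptors and adaptors and 3 of 12 transcription factors were higher. In CLL against TZL, 1 of the 81 genes was higher and 2 lower, beside 0.873% of all genes called. FCER1G, a signaling adaptor of NK and myeloid cells, was higher, and CCR7 and IL21R were lower. With Forrest alone as CLL, 0 of the genes in any of the 6 lists were called, and with the actin covariate neither CCR7 nor IL21R was. IL21R was at 7.0 and 7.55 in CLL and 8.15 to 9.43 in TZL. The share of all genes called with Forrest alone is not given here, so the counts of those fits have no background.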

How the data were processed

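The data came from 34 Affymetrix Canine_2 arrays. The deposited log2 values were made by the authors with RMA in the affy package, per the submitters' processing notes; versions, and whether all arrays were processed together, are not given in the sources used here. They ranged from 2.03 to 14.98 and were used without further normalization. Groups came from the labels. The study notes that 1 sample was run on 2 chips, and it could not be found among these arrays, whose highest pairwise correlation was 0.986.

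After 175 control probe sets were left out, 42860 were tested. Of these, 29254 carried 1 gene symbol in the platform annotation, 439 several and 13167 none, and 27680 matched the gene table by gene number. Probe sets whose names end in _s_at, which include those used for GZMB, NKG7, CCL5 and FASLG, may read several transcripts. Differences were fitted with limma 3.58.1 (lmFit and eBayes, R 4.3.3) with no filter on low values, so that all 9 genes were tested. The Benjamini-Hochberg adjustment covered all tested probe sets, and a gene was called at an adjusted p of 0.05. TZL was fitted with DLBCL, each lymphoma with the 18 cultured arrays, and CLL, TZL and DLBCL in 1 fit. The effector genes and the gene lists were chosen with earlier results of these data known. All effector genes are named. Up to 4 genes per list were named, those with the largest differences among the genes called in TZL against DLBCL, and 10 by the likeness of their profile, and the others, such as IL15 and PRDM1, were named after their values were seen. Summed marker levels are log2 of the sum of unlogged values. The fits were tested on simulated data. Replicates are separate dogs, and the number of arrays limits precision. Alternatives were a low-value filter, centering, quantile normalization, a trend with a robust prior, array weights, the actin covariate, other probe sets, other groupings and left-out arrays. Sequences and coordinates are not used here. Figures used matplotlib 3.10.9 in Python 3.11.15.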

Additional observations from a re-analysis of the deposited data

Results flagged for a closer look

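A lone value far from the rest of its group was searched for in 36 combinations of a gene and a group of 4 to 10 arrays, where chance gives about 1 in 20. It was found for 2 of them, both among the 5 OSA lines and both at the level of the cultured background. GZMA was at 3.91 in OSCA59, with the next line at 3.67 and the lowest at 3.61. KLRD1 was at 3.05 in OSCA20, with the next line at 3.51 and the highest at 3.65.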

How the results depend on the processing

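Of 844 values of single genes under alternative settings, 779 kept their direction and side of the threshold, 39 were no longer called, 13 became called and 13 turned sign. The share of all genes called in each setting is not given here. For TZL against DLBCL, 2 genes were called with a low-value filter or with DLBCL and MZL together, 3 with all 34 arrays in 1 fit, and 1 to 2 when single arrays were left out. Against cultured cells the filter left 5 genes to test, and all 5 were called in TZL and in DLBCL, fewer because fewer were tested. CTSW and GZMK passed the filter through the lymphoma arrays alone, as 0 of 18 cultured arrays exceeded the array median. FASLG also needed the lymphoma arrays to pass, as 3 of 18 cultured arrays exceeded it. The calls of these 3 genes under the filter are therefore no check. The range over left-out arrays was 9 to 9 in TZL and 8 to 9 in DLBCL. For CLL against DLBCL, 3 genes were called with the actin covariate and 0 to 6 without single arrays. For CLL against TZL, 1 was called with the filter, 2 with array weights and 0 to 4 without single arrays.

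Sign changes concerned GZMK, FASLG, CTSW and PRF1, and none of these values was called. With the other probe set, GZMK differed by -0.07 in TZL against DLBCL and by -0.32 in CLL against DLBCL, and FASLG by -0.20 in CLL against DLBCL and -0.30 in CLL against TZL. For CLL against DLBCL, GZMK ranged from -0.64 (without Maddle) to 3.20 (without Forrest). For CLL against TZL without single arrays, CTSW ranged from -2.71 to 2.15, GZMK from -2.12 to 1.73, FASLG from -0.61 to 2.08 and PRF1 from -0.24 to 4.53. CTSW was 0.37 without Rose and 0.30 with array weights, and GZMK 0.29 without Newman and 0.15 with the actin covariate. The causes were not tested. No paired analysis was possible because each array came from a separate dog or line. CLL rests on 2 arrays, and levels near the cultured range limit PRF1.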
